A study of Homo sapiens with 12 samples.

Results

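miR-22-3p, miR-29a-3p and miR-186-5p (hsa-miR-22-3p, hsa-miR-29a-3p and hsa-miR-186-5p in the count table) are mature miRNAs from unrelated hairpins on different chromosomes. These 3 of 1286 mature miRNA names were chosen by their reads, since each had fewer when DROSHA lacked its belt than when DROSHA was wild type. All 3 passed the filter on low counts, which kept 310 of 1277 miRNAs, after lines that repeat the same reads had been collapsed. The choice rests on the belt deletion and wild-type libraries, so the difference between those groups is given as a description without a test. The comparison of m4 with the empty plasmid, whose libraries that choice did not use, was tested. The members were chosen with earlier results of these data known, so its p-values are not free of that knowledge.

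Small RNA libraries were made from HCT116, a cell line from a human colorectal carcinoma, after knockout of DROSHA. All 12 libraries come from cells with this knockout, and all cells received 4.5 µg of the plasmid pXC-NLS-DG4. With it, 3 libraries each received pCK-DROSHA_belt_deletion, pCK-DROSHA_m4, pCK-DROSHA wild type or the empty pCK plasmid, the DROSHA plasmids at 4.5 µg. The labels do not say what is altered in m4, what the DG4 plasmid codes for, whether the knockout is 1 clone, or whether the numbered repeats are separate cultures, so p-values measure the spread between these libraries, which may be technical. miRNA counts hold no measure of DROSHA itself, so the amount of each DROSHA protein was not compared. As the RNA is from whole cultures, fewer cells that took up a plasmid and less miRNA per cell cannot be told apart.

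DROSHA is the nuclear RNase III enzyme that, with its partner DGCR8, cuts a primary miRNA transcript at the base of its hairpin and releases the precursor. DICER then cuts the precursor, and 1 strand of the duplex is loaded into an Argonaute protein, which it guides to target mRNAs through its seed, bases 2 to 8. In structures of the human enzyme the belt is a stretch of DROSHA that lies along the lower part of the hairpin stem. A few miRNAs mature without DROSHA, among them miR-320, miR-484 and the mirtrons, whose hairpin ends are made by splicing. Levels below are scaled reads, that is counts divided by a size factor taken from 5 such features, which are miR-484, the mirtrons miR-1224, miR-1226 and miR-877, and the 5 miR-320 miRNAs a to e added up.

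The mature sequences show that miR-22-3p and miR-29a-3p share no seed. They are from RefSeq (GRCh38.p14), 5′ to 3′, with the seed in capitals, and miR-29b-3p and miR-29c-3p are set beside miR-29a-3p because they carry its seed.
miR-22-3p: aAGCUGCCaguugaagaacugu
miR-29a-3p: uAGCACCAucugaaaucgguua
miR-29b-3p: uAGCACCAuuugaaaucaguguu
miR-29c-3p: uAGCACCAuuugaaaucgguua
Among 2370 mature names of the RefSeq table, the seed of miR-22-3p occurs in 1 and that of miR-29a-3p in 3. Counted from 1 at the 5′ end, miR-29a-3p differs from miR-29c-3p by C10U, and from miR-29b-3p by C10U, G18A, U21G and A22U, with 1 further base in miR-29b-3p. Reads of miR-29a-3p and miR-29c-3p could therefore be confused by a counting that tolerates a mismatch, and how the submitters' counting treated mismatches is not given in the sources used here. Only 1 read in all belt deletion libraries and 1 in all empty libraries were listed under miR-29c-3p.

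The hairpins overlap exons or introns of long non-coding and protein-coding genes. In GENCODE release 29, on the same genome (GRCh38) as the hg38 build of the submitters' processing notes, MIR22 spans 1713903 to 1713987 of chromosome 17 on the minus strand, inside an exon of the long non-coding RNA MIR22HG. MIR29A spans 130876747 to 130876810 of chromosome 7 on the minus strand and overlaps the edge of an annotated exon of the long non-coding RNA LINC-PINT, with MIR29B1 648 bases away on the same strand. It also lies in introns of the long non-coding RNAs AC016831.6 (same strand) and LINC00513 (opposite strand). MIR186 spans 71067631 to 71067716 of chromosome 1 on the minus strand, in an intron of the protein-coding gene ZRANB2.

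The hairpin of mir-22 had no entry in the RefSeq sequences used here, so it was not analysed and its G and C content is not given. The RefSeq hairpins of mir-29a and mir-186 are shown because both are rich in A and U, with the annotated mature arms in capitals (for mir-186 the 3p arm, which is not the arm counted here).
mir-29a: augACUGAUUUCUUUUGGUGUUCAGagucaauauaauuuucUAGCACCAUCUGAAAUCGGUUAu
mir-186: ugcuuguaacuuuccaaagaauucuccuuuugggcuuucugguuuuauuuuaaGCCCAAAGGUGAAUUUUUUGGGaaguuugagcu
The G and C content is 32.8% in mir-29a and 36.0% in mir-186, against a median of 54.4% over 276 hairpins of tested miRNAs with a RefSeq sequence (of 316). Only 4 of the 276 had a lower content than mir-29a and 8 a lower one than mir-186. The predicted folding energy is -0.38 kcal/mol per base for mir-29a and -0.48 for mir-186, on either side of the median of -0.45. No test was made of G and C content. Of the 132 miRNAs called higher with wild type than with the empty plasmid, 29 were called lower with the belt deletion than with wild type. The hairpins of these had a median of 49.4% (24 with a sequence), against 52.4% (96 with a sequence) for the other 103. This split uses the contrast that chose the members, and the lowest of the 24, at 32.8%, is mir-29a itself. Of the 96, 2 had a lower content than mir-29a.

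miR-22-3p, an miRNA studied for restraining growth in several cancers, differed most of the 3 between wild type and empty plasmid. It stood at 47.5, 47.7 and 56.3 scaled reads in the belt deletion libraries, 37.6, 40.7 and 23.0 in the m4 libraries, 265, 243 and 156 in the wild-type libraries and 6.77, 3.48 and 4.65 in the empty plasmid libraries (replicates 1, 2 and 3). The order was wild type, belt deletion, m4 and empty plasmid, and no neighbours in that order overlapped. The empty plasmid value rests on 21 reads in 3 libraries (exact Poisson 95% interval 13.0 to 32.1 reads, counting error only).

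miR-29a-3p belongs to the miR-29 family, known for repressing collagen and other extracellular matrix mRNAs. It had 31.7, 56.4 and 56.3 scaled reads with the belt deletion, 47.2, 31.4 and 83.2 with m4, 197, 223 and 128 with wild type, and 12.8, 16.0 and 21.9 with the empty plasmid. The wild-type libraries were highest and the empty plasmid libraries lowest, each without overlap with another group. In scaled reads the belt deletion and m4 libraries overlapped, and m4 replicate 3 was above all belt deletion libraries.

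miR-186-5p, which is made from the intron of ZRANB2, had the fewest reads of the 3. It stood at 13.2, 31.4 and 16.2 scaled reads with the belt deletion, 17.2, 24.0 and 24.3 with m4, 102, 75.6 and 58.6 with wild type, and 12, 6.95 and 8.63 with the empty plasmid. In scaled reads all wild-type libraries were above all others, and the belt deletion and m4 libraries overlapped. Belt deletion replicate 1 was close to empty plasmid replicate 1. Over each group the counts were 59, 61, 180 and 39 reads for belt deletion, m4, wild type and empty plasmid, so counting error alone is sizeable.

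**Figure D1:**
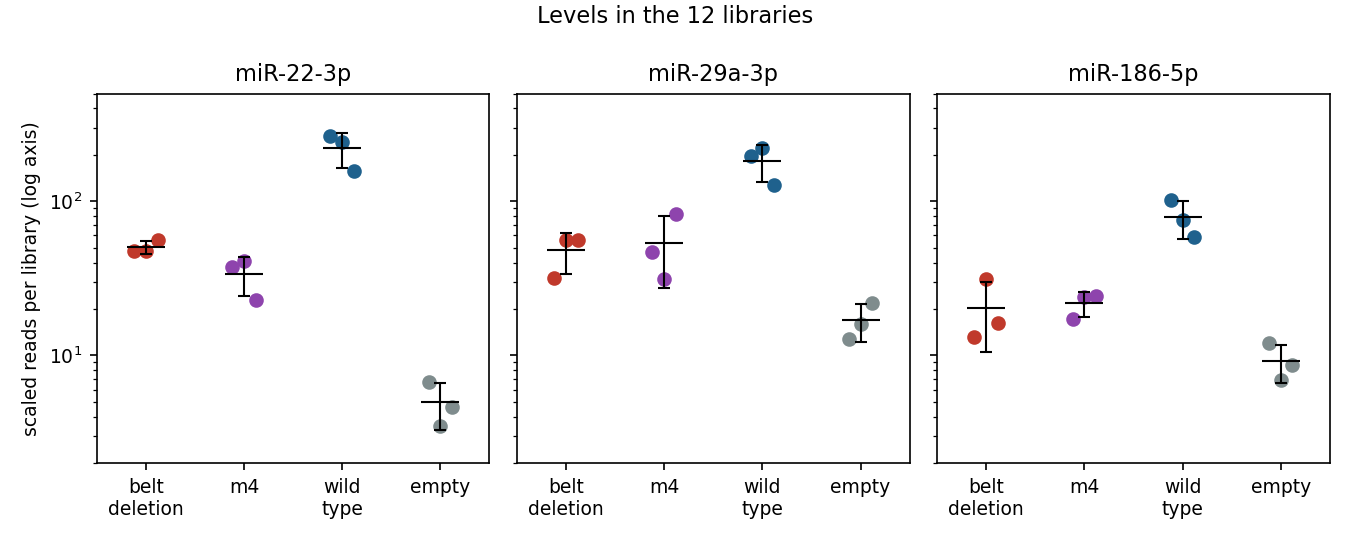
Scaled reads (log axis) of miR-22-3p, miR-29a-3p and miR-186-5p in each library of the belt deletion, m4, wild-type and empty plasmid groups; points are libraries, dashes are means and bars are SD (n = 3). On this scale all wild-type libraries lie above all libraries of the other groups, and the empty plasmid libraries lie lowest.

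Between belt deletion and wild type, the contrast that chose them, the 3 miRNAs differed by similar amounts. miR-22-3p averaged 50.5 ± 5.04 scaled reads with the belt deletion and 221 ± 58.0 with wild type (SD, n = 3 each), 4.37-fold lower (log2 -2.13, SE 0.37). miR-29a-3p averaged 48.1 ± 14.3 with the belt deletion and 183 ± 48.9 with wild type, 3.80-fold lower (log2 -1.92, SE 0.39). miR-186-5p averaged 20.3 ± 9.73 with the belt deletion and 78.8 ± 22.0 with wild type, 3.96-fold lower (log2 -1.99, SE 0.40). From the lowest log2 change upward they were 9th, 12th and 11th of 310, where the median change of all tested miRNAs was 0.04. In this contrast edgeR called 29 of 310 miRNAs (9.35%) lower and 10 higher, and 17.1% were lower without overlap between groups. The size of the difference in the members is set in part by their choice.

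Other size factors changed the difference between belt deletion and wild type little. The 4 other scalings left the log2 changes between -2.31 and -2.06 for miR-22-3p, -2.12 and -1.87 for miR-29a-3p and -2.12 and -1.94 for miR-186-5p. The features that set the scale add up the arms of each DROSHA-independent miRNA. Single miRNAs of these features differed among themselves in the same contrast. Their log2 changes were 0.78 for miR-1224-5p, 0.13 for miR-320a-3p, 0.04 for miR-877-5p, -0.37 for miR-484 and -1.0 for miR-1226-3p. None of these was called by edgeR (adjusted p = 0.0964, 0.838, 0.950, 0.459 and 0.189). Of the opposite arms, miR-1226-5p changed by 0.003 and miR-877-3p by -0.780.

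Within a library, reads can also be set against those of miR-21-5p, an abundant miRNA that depends on DROSHA and is known as oncogenic in colorectal tumours, so that no size factor enters. miR-21-5p itself averaged 74877 ± 6226 scaled reads with the belt deletion and 80950 ± 29538 with wild type, with overlapping libraries (log2 -0.11, SE 0.34, edgeR adjusted p = 0.858). Per 10000 reads of miR-21-5p, miR-22-3p had 6.11, 6.02 and 8.31 reads with the belt deletion, against 28.6, 23.6 and 32.9 with wild type. miR-29a-3p had 4.08, 7.13 and 8.31 with the belt deletion, against 21.3, 21.7 and 27.1 with wild type. miR-186-5p had 1.70, 3.96 and 2.39 with the belt deletion, against 11, 7.35 and 12.4 with wild type. No library overlapped between these groups on this scale either, where 18.1% of the 309 other tested miRNAs were lower without overlap. With m4, miR-21-5p itself averaged 7446 ± 1928 scaled reads, far below wild type. miR-22-3p had 66.3, 56.6 and 24.3 reads per 10000 of miR-21-5p with m4, overlapping wild type. miR-29a-3p had 83.3, 43.8 and 87.6 and miR-186-5p 30.3, 33.5 and 25.6 reads per 10000 of miR-21-5p with m4, above all wild-type libraries. With the empty plasmid, miR-22-3p had 27.5, 19.5 and 24.3, miR-29a-3p 51.9, 89.9 and 115 and miR-186-5p 48.8, 39.1 and 45.2 reads per 10000 of miR-21-5p. On this scale m4 overlapped the empty plasmid for miR-22-3p and miR-29a-3p and was below it in all libraries for miR-186-5p, while miR-21-5p itself was 3.63-fold higher with m4 than with the empty plasmid.

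**Figure D2:**
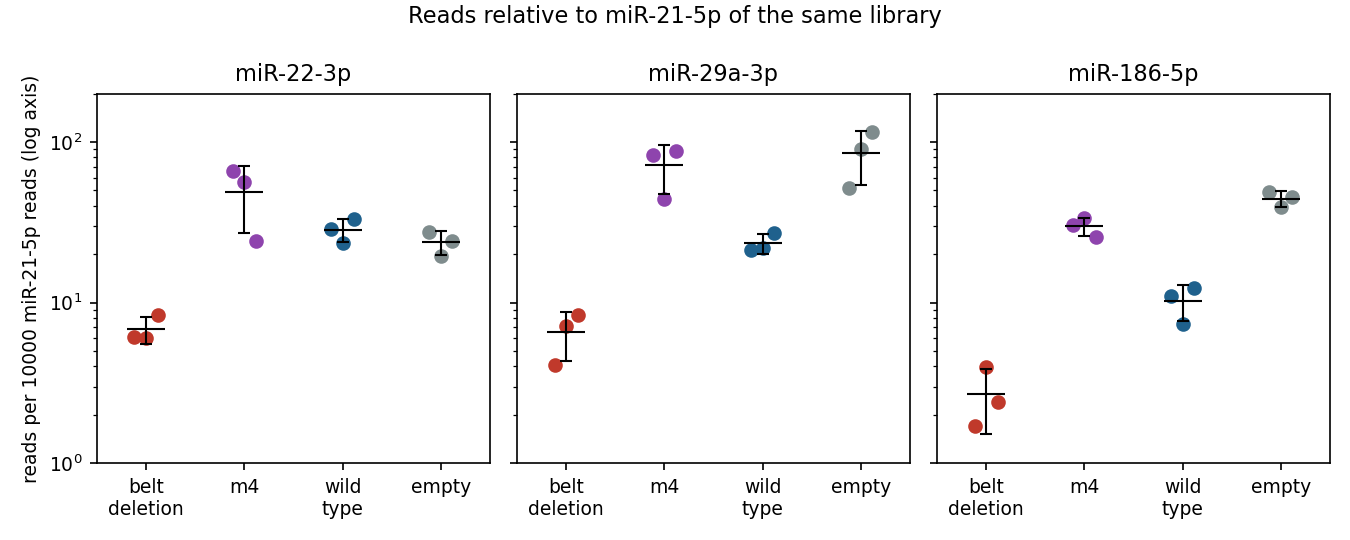
Reads of each miRNA per 10000 reads of miR-21-5p in the same library (log axis), by group; points are libraries, dashes are means and bars are SD (n = 3). The belt deletion libraries are the lowest group in all 3 panels, for miR-22-3p between 6.02 and 8.31.

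Against the empty plasmid, the question for m4 is whether its presence restores any of the 3. All 3 rose with m4, in a contrast where edgeR called 127 of 310 miRNAs (41.0%) higher and 3 lower. miR-22-3p averaged 33.7 ± 9.41 scaled reads with m4 and 4.97 ± 1.67 with the empty plasmid, 6.72-fold higher (log2 2.75, SE 0.43, edgeR adjusted p = 1.20e-07). It reached the cutoff of the low-count filter in 0 of 3 empty plasmid libraries, so it passed only through the groups where it was high. Without the filter the log2 change was 2.75 (edgeR adjusted p = 4.03e-08). miR-29a-3p averaged 53.9 ± 26.5 with m4 and 16.9 ± 4.63 with the empty plasmid, 3.15-fold higher (log2 1.66, SE 0.40, edgeR adjusted p = 0.000365). miR-186-5p averaged 21.8 ± 4.04 with m4 and 9.21 ± 2.59 with the empty plasmid, 2.36-fold higher (log2 1.24, SE 0.43, edgeR adjusted p = 0.0146). All m4 libraries were above all empty plasmid libraries for each of the 3, as they were for 45.2% of tested miRNAs. These are changes in scaled reads; per read of miR-21-5p, which itself rose with m4 (log2 1.86, SE 0.35, edgeR adjusted p = 8.24e-06), miR-186-5p was lower with m4 than with the empty plasmid, as given above.

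Among all tested miRNAs the median log2 change with m4 was 0.83, and from the highest change downward miR-22-3p was 40th, miR-29a-3p 101st and miR-186-5p 131st. The call for miR-186-5p was lost under TMM scaling (log2 0.81, adjusted p = 0.0824) and DESeq2 size factors (0.77, adjusted p = 0.101), without the filter on low counts (1.24, adjusted p = 0.0564), and without empty plasmid replicate 2 (1.07, adjusted p = 0.0928) or 3 (1.20, adjusted p = 0.0513). Those of miR-22-3p and miR-29a-3p held in every alternative run. Under TMM scaling, which moved the median miRNA by -0.43, the calls were 98 higher and 12 lower, and under total reads scaling 144 and 3.

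**Figure D3:**
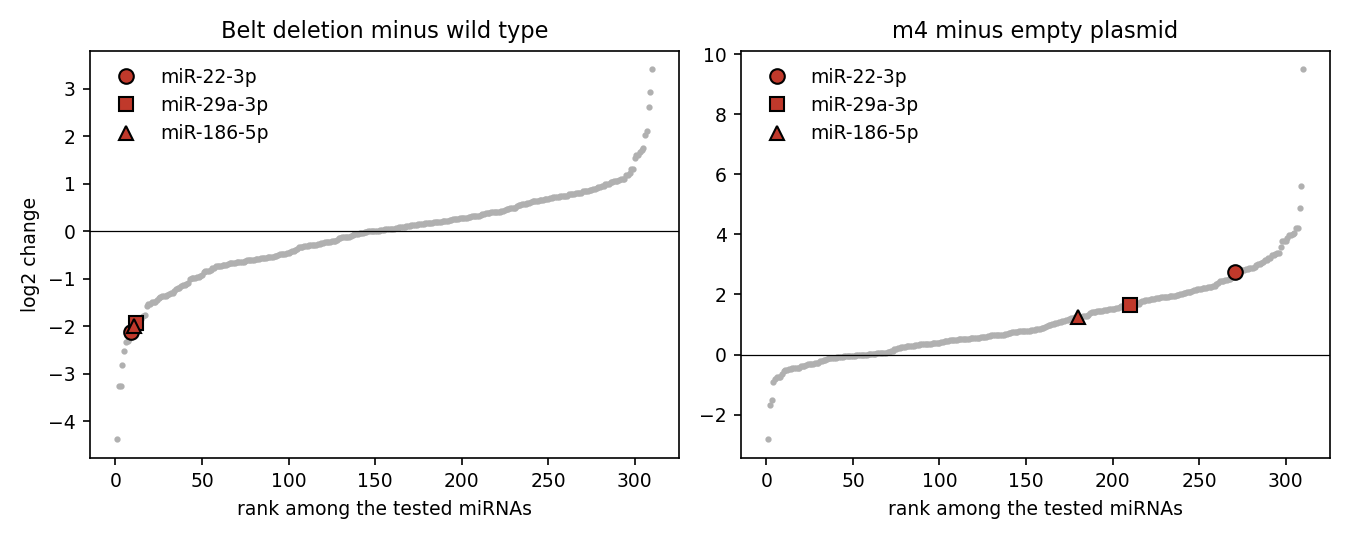
Log2 changes of the 310 tested miRNAs in order of size for belt deletion minus wild type (left) and m4 minus empty plasmid (right), each grey point 1 miRNA, with miR-22-3p, miR-29a-3p and miR-186-5p as red symbols. The 3 lie 9th to 12th from the lowest end on the left, the contrast that chose them, and 40th to 131st from the highest end on the right.

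The remaining contrasts share belt deletion or wild-type libraries with the choice of members and are given without tests. Wild type stood above the empty plasmid by a log2 change of 5.45 (SE 0.45) for miR-22-3p, 3.42 (SE 0.41) for miR-29a-3p and 3.09 (SE 0.42) for miR-186-5p, where edgeR called 42.6% of miRNAs higher and 46.5% were higher without overlap, as were the 3. miR-22-3p was 18th from the highest of 310, and miR-29a-3p and miR-186-5p were 101st and 109th. The belt deletion stood above the empty plasmid by 3.32 (SE 0.43), 1.5 (SE 0.40) and 1.10 (SE 0.43) in the same order of miRNAs, where 42.9% were called higher and 46.5% were higher without overlap, again with the 3 among them. For miR-186-5p this shrank to 0.29 (SE 0.36) under TMM scaling, 0.34 under total reads and 0.43 with DESeq2 size factors. For miR-29a-3p it shrank to 0.72 under TMM scaling, 0.72 under total reads and 0.85 with DESeq2 size factors. The log2 change of m4 against wild type was -2.70 (SE 0.38), -1.77 (SE 0.38) and -1.85 (SE 0.40), where 34.2% were called lower and 33.9%, the 3 included, were lower without overlap. Under total reads scaling, which moved the median miRNA by 1.05 in this contrast, these became -1.65, -0.64 and -0.83, and the calls over all miRNAs went to 133 higher and 60 lower, against 11 higher and 106 lower with the main scaling.

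With the main scaling, belt deletion and m4 were closer to each other than either was to wild type for the 3. miR-22-3p was 1.49-fold higher with the belt deletion (log2 0.57, SE 0.37) and its libraries did not overlap, as in 29.7% of tested miRNAs that were higher with the belt deletion, where edgeR called 25.8% higher. The log2 change was -0.16 (SE 0.38) for miR-29a-3p and -0.14 (SE 0.41) for miR-186-5p, with overlapping libraries. Under total reads scaling, which moved the median miRNA by -1.0, the values were -0.42, -1.23 and -1.11. The order of the 2 mutants therefore depended on the scaling for miR-22-3p. For miR-29a-3p and miR-186-5p the difference was negative under every scaling, and its size depended on the scaling. miR-21-5p differed between the same groups by 3.33 (SE 0.37, edgeR adjusted p = 6.71e-12), 74877 ± 6226 scaled reads with the belt deletion and 7446 ± 1928 with m4.

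The share of the wild-type gain kept by each mutant puts these values on 1 scale, with the empty plasmid mean at 0% and the wild-type mean at 100%. With the belt deletion the 3 miRNAs kept 21.1% (miR-22-3p), 18.8% (miR-29a-3p) and 15.9% (miR-186-5p), and miR-21-5p kept 92.3%. With m4 they kept 13.3%, 22.3% and 18.1%, and miR-21-5p kept 6.84%. Over the 132 miRNAs called higher with wild type the median share was 66.4% with the belt deletion and 20.5% with m4. From the lowest share upward, the 3 were 13th, 10th and 6th of 132 with the belt deletion, which follows from how they were chosen, and 42nd, 70th and 56th with m4. Single libraries spread widely for miR-186-5p, from 5.73% to 31.8% with the belt deletion, and for miR-29a-3p, from 8.74% to 39.9% with m4.

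**Figure D4:**
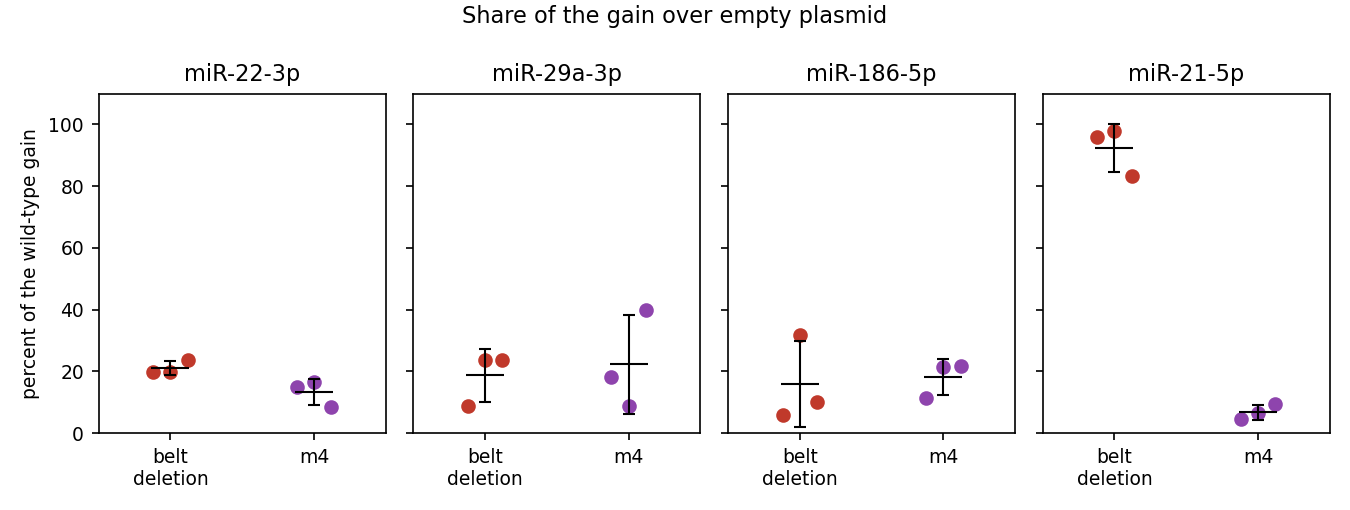
Share of the wild-type gain over the empty plasmid kept in each belt deletion and m4 library, in percent of the difference between the wild-type and empty plasmid means of scaled reads; points are libraries, dashes are means and bars are SD (n = 3). miR-22-3p, miR-29a-3p and miR-186-5p stay below 40% with both mutants, whereas miR-21-5p is between 83.3% and 97.8% with the belt deletion.

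Ratios between the 3 within a library need no scaling. Per read of miR-186-5p there were 2.56 ± 0.848 reads of miR-29a-3p with the belt deletion, 2.49 ± 1.08 with m4, 2.36 ± 0.531 with wild type and 1.97 ± 0.792 with the empty plasmid (SD, n = 3 each), with overlap between all groups. Per read of miR-186-5p there were 2.86 ± 1.17 reads of miR-22-3p with the belt deletion, 1.61 ± 0.624 with m4, 2.82 ± 0.342 with wild type and 0.534 ± 0.0315 with the empty plasmid. The m4 libraries did not overlap the empty plasmid libraries in this second ratio (two-sided exact permutation p = 0.1, the smallest that 3 against 3 can give, 0.300 after adjustment over 3 ratios). For miR-22-3p per read of miR-29a-3p the exact permutation p of m4 against empty plasmid was 0.2, and for miR-29a-3p per read of miR-186-5p it was 0.5. With 3 libraries a group these ratios cannot reach the threshold of 0.05.

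The opposite arms of the hairpins had too few reads to test. miR-22-5p had 7 reads in the belt deletion libraries, 6 with m4, 20 with wild type and 6 with the empty plasmid. Of the 20 with wild type, 15 came from replicate 1, and of the 6 with the empty plasmid, 5 came from replicate 1. The 3p arm held 95.8% of mir-22 reads with the belt deletion (exact binomial 95% interval 91.5 to 98.3), 94.2% with m4 (87.8 to 97.8), 96.1% with wild type (94.1 to 97.6) and 77.8% with the empty plasmid (57.7 to 91.4, 27 reads), intervals that cover counting error only. miR-29a-5p had 1, 2, 4 and 3 reads in the 4 groups, and the 3p arm held between 96.1% and 99.3% of mir-29a reads. The preferred arm was the 3p arm in all groups for both hairpins. miR-186-3p has no line in the count table used here.

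Of the other miR-29 miRNAs only miR-29b-3p passed the filter on low counts. It is made from MIR29B1, beside MIR29A, and from MIR29B2 on chromosome 1, and its 2 lines hold the same reads. It had 3, 5 and 8 reads with the belt deletion, 10, 0 and 12 with m4, 8, 9 and 13 with wild type, and 0, 0 and 4 with the empty plasmid. The m4 replicate with no read of miR-29b-3p was also the lowest m4 library of miR-29a-3p. Its m4 and empty plasmid libraries overlapped, as did belt deletion and empty plasmid. It passed the filter only through 2 m4 and 2 wild-type libraries, the groups where it was high, so its adjusted p-values against the empty plasmid are in part fixed by the filter. Against the empty plasmid the log2 change was 3.68 with wild type (SE 0.90, edgeR adjusted p = 0.000458) and 3.00 with m4 (SE 0.93, adjusted p = 0.00781). With the belt deletion against the empty plasmid it was at the threshold (2.34, SE 0.98, adjusted p = 0.0491), a call lost under 3 of the 4 other scalings (adjusted p = 0.181 to 0.258), with the DESeq2 test (0.0516), with summed hairpin lines (0.220) and without any 1 of 9 libraries, namely empty plasmid replicate 1 or 2, any wild-type replicate, m4 replicate 1 or 3, or belt deletion replicate 2 or 3 (0.0509 to 0.186). The m4 call was lost with DESeq2 size factors, with summed hairpin lines, and without empty plasmid replicate 2, m4 replicate 1 or m4 replicate 3 (adjusted p = 0.0515 to 0.102). The sizes rest on the 4 reads of empty plasmid replicate 3, without which the empty plasmid is at 0 and the fitted log2 change was 5.41 for the belt deletion, 6.07 for m4 and 6.73 for wild type. Belt deletion stood below wild type without overlap (log2 -1.34, SE 0.74), with 16 reads against 30. miR-29b-1-5p had 11 reads in the belt deletion libraries, 4 with m4, 4 with wild type and 0 with the empty plasmid. miR-29c-5p had 3, 0, 2 and 0 in the same order, and miR-29b-2-5p has no line.

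Over the 4 group means, miR-29a-3p and miR-186-5p had nearly the same pattern. Their log2 profiles, each centred on its own mean, differed by a root mean square of 0.18, against 0.73 between miR-22-3p and miR-29a-3p and 0.90 between miR-22-3p and miR-186-5p. Among 100 miRNAs with at least 100 scaled reads in their highest group, let-7g-5p, of a family known for repressing LIN28 and RAS genes, was nearest to miR-22-3p (0.21), before miR-20a-5p of the miR-17-92 cluster (0.29) and miR-7-5p (0.29). miR-99b-5p (0.15), miR-92a-3p (0.15) and miR-26b-5p (0.40) were nearest to miR-29a-3p among these, and miR-186-5p, at 0.18, was left out by the minimum of 100 scaled reads. For miR-186-5p they were miR-29a-3p itself (0.18), miR-92a-3p (0.18) and miR-99b-5p (0.32). let-7g-5p averaged 417 ± 60.9 scaled reads with the belt deletion, 383 ± 95.9 with m4, 1694 ± 356 with wild type and 54.6 ± 19.2 with the empty plasmid. miR-92a-3p averaged 176 ± 86.8 with the belt deletion, 158 ± 53.2 with m4, 491 ± 122 with wild type and 59.1 ± 7.60 with the empty plasmid. A likeness over 4 means is a description, and all the miRNAs named share the same libraries.

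**Figure D5:**
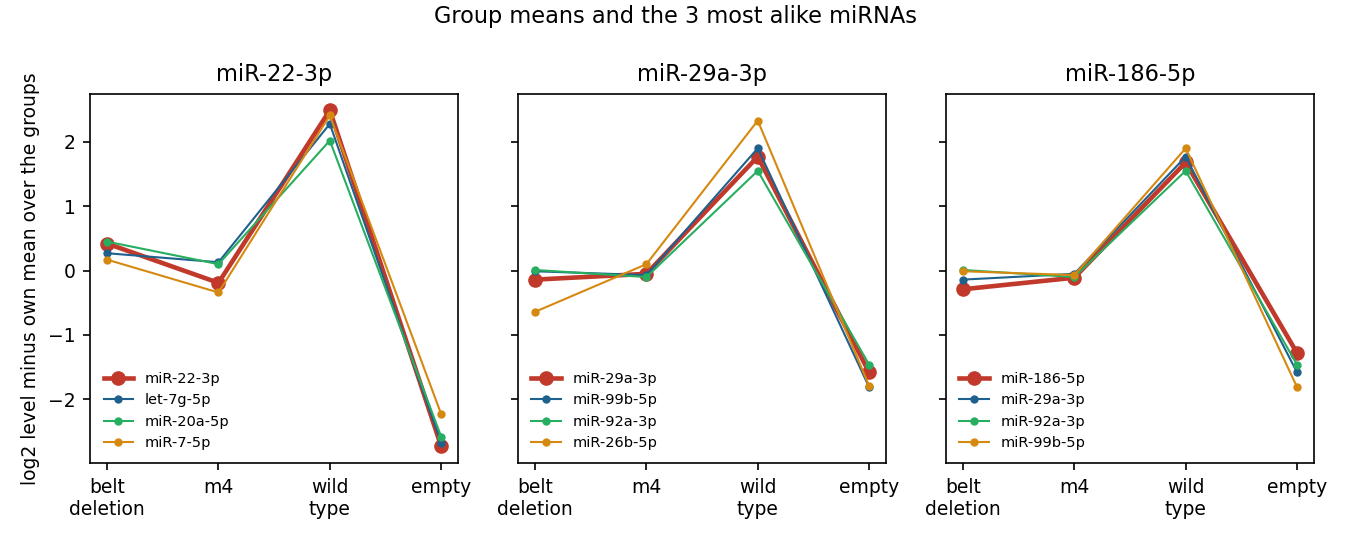
Mean log2(scaled reads + 1) in each group minus the miRNA's own mean over the 4 groups, for miR-22-3p, miR-29a-3p and miR-186-5p (thick red lines) and the 3 miRNAs nearest to each (thin lines). Every line peaks with wild type and is lowest with the empty plasmid, and belt deletion and m4 lie between them.

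The libraries held 132667 to 407461 reads in the table, or 101886 to 332081 after collapsing, and m4 replicates 1 and 3 were the shallowest. Markers of colon epithelium (miR-200c-3p, miR-141-3p, miR-200b-3p, miR-192-5p, miR-194-5p and miR-215-5p) summed to 107 to 335 scaled reads with the belt deletion, 164 to 242 with m4, 123 to 205 with wild type and 68.9 to 91.8 with the empty plasmid, where miR-194-5p was at 0. Most of this sum came from miR-200c-3p (means of 89.9, 107, 63.7 and 45.4) and miR-200b-3p (67.0, 86.2, 72.5 and 26.6). In every group miR-141-3p, miR-194-5p and miR-215-5p each averaged 6.20 or less. Of 13 miRNAs typical of other cell types, 8 were in the table, and they summed to 569 to 786 with the belt deletion, 325 to 628 with m4, 479 to 700 with wild type and 216 to 293 with the empty plasmid. The muscle markers miR-133a-3p and miR-206, the neuronal miR-124-3p and the blood markers miR-223-3p and miR-142-3p were at 0 in all groups. Of the same tissues, the neuronal miR-9-5p averaged 72.1 scaled reads with the belt deletion, 71.9 with m4, 69.1 with wild type and 20.2 with the empty plasmid, while the muscle miR-1-3p and the blood miR-451a and miR-142-5p averaged under 1 in every group. Most of the sum of the other cell types came from miR-126-3p (404, 150, 393 and 9.44) and miR-143-3p (185, 171, 112 and 133). The liver marker miR-122-5p went the other way from miR-126-3p and was highest with the empty plasmid (45.5, 65.1, 48.9 and 78.8). miR-145-5p was near the floor (1.13, 0, 2.39 and 0). The sums of belt deletion and wild type overlapped. The part of these markers in the difference between m4 and empty plasmid was not tested.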

How the data were processed

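The values are raw read counts that the authors deposited per hairpin and mature miRNA, whole numbers that were not normalised. cutadapt, Bowtie2 and hg38 are named per the submitters' processing notes; versions, counter and strand use are not given in the sources used here. Blank cells (7220) were read as 0. For each mature name the line with most reads was kept, and 9 pairs of names holding equal reads (within 5 reads or 5% in each library, at least 120 reads in total) were merged into 1277 miRNAs. Size factors are the median ratio over 5 DROSHA-independent features, each of which had 20 or more reads per library. All 12 libraries were fitted in edgeR 4.0.16 (R 4.3.3, filterByExpr, robust quasi-likelihood F test, no covariates), with Benjamini-Hochberg adjustment over 310 miRNAs and calls at an adjusted p under 0.05. SE is the absolute log2 change over the root of F. DESeq2 1.42.0 was an alternative, and RNAfold 2.7.2 folded the hairpins. The members, lists and naming rule (members, opposite arms, miR-29 family, 3 nearest miRNAs in pattern by log2 of scaled reads + 1, DROSHA-independent miRNAs, miR-21-5p) were chosen with earlier results of these data known. Alternatives were other scalings, DESeq2, no filter, summed lines, a replicate block and leaving out each library; the ratio to miR-21-5p was added after seeing the data.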

Additional observations from a re-analysis of the deposited data

How the results depend on the processing

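Of 423 log2 changes recomputed under alternatives, 365 kept their direction and their side of the threshold, or moved by less than the spread between replicates; 80 more values are counts of calls, of which the count for wild type minus empty plasmid without the low-count filter moved most (198, against 132). Among the 365 are all values of belt deletion minus wild type for the 3 miRNAs, also without each library in turn (-2.33 to -1.96 for miR-22-3p, -2.13 to -1.70 for miR-29a-3p and -2.43 to -1.74 for miR-186-5p). That contrast chose the 3, so its kept direction follows in part from the choice. The call of miR-186-5p for m4 minus empty plasmid ended under TMM (0.81), DESeq2 size factors (0.77) and without the low-count filter (1.24), and ran from 1.07 to 1.47 without single libraries, where the ranges were 2.55 to 3.03 for miR-22-3p and 1.19 to 1.96 for miR-29a-3p. Wild type minus empty plasmid for miR-22-3p, miR-29a-3p and miR-186-5p was, with TMM scaling, 4.65, 2.61 and 2.29; with DESeq2 size factors, 4.79, 2.75 and 2.43; by total reads, 4.64, 2.59 and 2.28; and 5.86, 3.83 and 3.48 with the sum of the DROSHA-independent reads. Belt deletion minus empty plasmid was, with TMM scaling, 2.58, 0.72 and 0.29; with DESeq2 size factors, 2.71, 0.85 and 0.43; and by total reads, 2.58, 0.72 and 0.34. m4 minus wild type was -2.28 (miR-22-3p) and -1.48 (miR-186-5p) under TMM, and -1.65, -0.64 and -0.83 under total reads. Belt deletion minus m4 was 0.21 for miR-22-3p under TMM and 0.25 with the sum of the DROSHA-independent reads; under total reads it was -0.42, -1.23 and -1.11. It turned positive without m4 replicate 3 (0.29) or belt deletion replicate 1 (0.05) for miR-29a-3p, and without belt deletion replicate 1 (0.08) for miR-186-5p; over all single libraries it ran from -0.45 to 0.29 and from -0.58 to 0.08. These scalings move all miRNAs together: the median shifted by -0.80 (TMM), -0.66 (DESeq2 size factors), -0.82 (total reads) and 0.39 (sum) for wild type minus empty plasmid, and by -0.03 to 0.02 under the first 3 and -0.14 under the sum for belt deletion minus wild type. Calls higher and lower for wild type minus empty plasmid were 125 and 88 under TMM (132 and 2 with the main scaling), and for belt deletion minus empty plasmid 114 and 47 (133 and 1). With the repeat number as a replicate block, belt deletion minus wild type was -2.08, -1.99 and -1.99 for miR-22-3p, miR-29a-3p and miR-186-5p, and no call of the 3 changed. Same-numbered libraries did not deviate together (median r of -0.0681 over 18 pairs, 1 of 12 libraries closest to its own number), so the numbers are not taken to pair the samples. Low reads limit the opposite arms and the empty plasmid values.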
